A study of Arabidopsis thaliana with 6 samples.

Results

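The type-A cytokinin response regulators were followed in RNA sequencing counts from the stem base of *Arabidopsis thaliana*. The family was taken by locus code and holds *ARR3*, *ARR4*, *ARR5*, *ARR6*, *ARR7*, *ARR8*, *ARR9*, *ARR15*, *ARR16* and *ARR17*, 10 of the 33602 genes of the count table. Of these, 7 passed the filter on low counts, as did 20296 of all genes, and *ARR3*, *ARR16* and *ARR17* did not. The annotation gave each code the matching symbol. The study compared stems labelled *smxl4 smxl5*, a double mutant of a pair of SMXL genes that promote phloem formation, with stems labelled wild type. All shoots, the controls included, had been grafted as seedlings onto wild-type roots, so the groups differ in the genotype above the graft. Each group has 3 libraries, and each library pools 3 stem segments of 1 cm from plants 15 to 20 cm tall that had been moved from short to long days. The labels name no drug or hormone treatment, and they give neither the alleles nor the age at harvest.

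Cytokinins are sensed by membrane histidine kinases, which pass phosphate through phosphotransfer proteins to response regulators in the nucleus. Type-B regulators are transcription factors that switch on the type-A genes. Type-A proteins consist of little more than a receiver domain, hold the pathway back as negative feedback regulators, and their transcripts are widely used as a readout of cytokinin signalling. In the stem, cytokinin promotes divisions of the cambium, the layer that gives rise to phloem and xylem.

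The libraries held between 21364628 and 49929595 counts over genes. The genes named in the genotype did not check the labels. *SMXL4* reached 13.4, 15.3 and 11.2 CPM (read counts scaled to the library total, with a correction for library composition) in the libraries labelled *smxl4 smxl5*, called mutant-labelled here, and 12.1, 10.2 and 11.1 CPM in wild type. *SMXL5* reached 116, 116 and 82.0 CPM against 112, 97.5 and 99.4 CPM. Neither was lower. For *SMXL4* the edgeR adjusted p was 0.179, and for *SMXL5* it was 0.920. Without mutant-labelled library 3, *SMXL4* was called higher (adjusted p = 0.0490). Every direction below rests on the labels of the libraries.

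In those libraries *ARR6* and *ARR8* transcripts rose, by 1.78-fold and 1.23-fold, while *ARR4*, *ARR5*, *ARR7*, *ARR9* and *ARR15* did not pass the test in either direction. Calls here are an adjusted p under 0.05 in edgeR's quasi-likelihood test over all genes. The 2 of 7 tested members that were called compare with 24.9% of all genes tested, and 11.2% of all genes were called higher, so the count by itself is near the background. The share of all genes called in either direction was 24.7% in DESeq2, 24.4% with RLE factors, 25.4% with library totals alone, 18.2% with no filter and 25.7% with a filter of 1 CPM in 3 libraries, and the same 2 members were called in each. No member was called lower. At an unadjusted p under 0.05 the number lower was also 0, as it was in DESeq2, which called the same pair of genes higher. The libraries of the groups did not overlap for 2 of 7 members, again *ARR6* and *ARR8*, against 45.3% of all genes tested. The median log2 fold change of the 7 members was 0.13, against 0.02 over all genes tested. It was 0.0069 without wild-type library 1, 0.06 without mutant-labelled library 2, 0.07 without mutant-labelled library 1, 0.20 without mutant-labelled library 3 and 0.22 without wild-type library 3. In bulk tissue, a change in the share of cells of a type and a change in RNA per cell cannot be told apart, whether a transcript rises or falls.

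**Figure D1:**
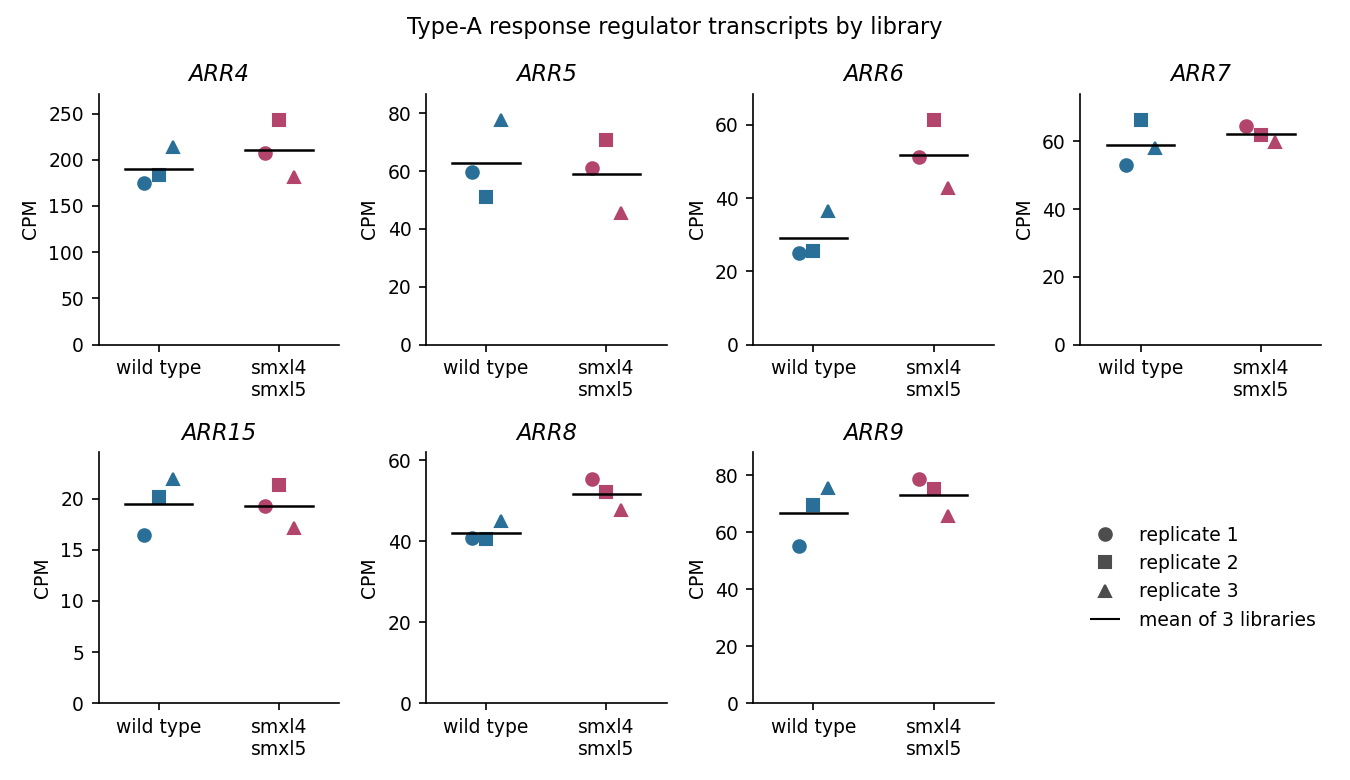
CPM of the 7 tested type-A members (vertical axis, from 0, on a separate scale for each gene) in 3 wild-type and 3 mutant-labelled libraries; each point is a library, its shape gives the replicate and the line is the mean of 3. Only in the panels of *ARR6* and *ARR8* do all mutant-labelled points lie above all wild-type points.

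*ARR5* and *ARR6* encode closely related regulators that respond quickly to cytokinin, and their coding sequences are identical at 80.1% of aligned bases. *ARR6* (AT5G62920; TAIR10.1 chromosome 5, 25252007 to 25254318, minus strand) stood at 51.1, 61.2 and 42.8 CPM in the mutant-labelled libraries and at 25.0, 25.6 and 36.4 CPM in wild type. Every mutant-labelled library was above every wild-type library, with the smallest gap between mutant-labelled replicate 3 and wild type replicate 3. The means were 51.7 ± 9.21 and 28.99 ± 6.40 CPM (SD, n = 3), which is a log2 fold change of 0.83 ± 0.19 (SE; 95% interval 0.39 to 1.28; edgeR adjusted p = 0.0222). *ARR5* (AT3G48100; chromosome 3, 17758427 to 17760950, minus strand) stood at 61.0, 70.8 and 45.5 CPM in the mutant-labelled libraries and at 59.6, 51.2 and 77.5 CPM in wild type. Here the highest library was a wild-type one and the lowest a mutant-labelled one, and the groups overlapped. Its log2 fold change was -0.09 ± 0.21 (95% interval -0.58 to 0.40; edgeR adjusted p = 0.771).

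The ratio of these paralogs inside a library does not depend on how libraries are scaled to each other. Per kb of exon, the log2 ratio of *ARR6* to *ARR5* was -0.26, -0.22 and -0.10 in the mutant-labelled libraries and -1.26, -1.01 and -1.10 in wild type. *ARR6* thus came close to the level of *ARR5* in the mutant-labelled libraries and stayed well below it in wild type, with no overlap. The difference in log2 ratio was 0.93, a 1.91-fold change of the ratio. The exact two-sided permutation p over samples was 0.10, the smallest that 3 libraries against 3 can give, and 0.50 after adjustment over the 5 paralogous pairs. When any library was left out the difference stayed between 0.86 and 0.99. The locus of *ARR6* shares 348 bases with AT5G62910 on the opposite strand, and while the library kit was directional, the strand setting of the authors' counting is not given. AT5G62910 itself stood at 19.4, 22.2 and 20.8 CPM in the mutant-labelled libraries and at 19.8, 19.5 and 20.0 CPM in wild type (log2 0.07 ± 0.08; adjusted p = 0.511 in edgeR). The BLAST search returned no stretch of 95% identity over 50 bases or more with another transcript for *ARR6* outside that overlap. It also returned no match between *ARR6* and *ARR5*, so it can miss similar stretches and does not show that none exist.

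**Figure D2:**
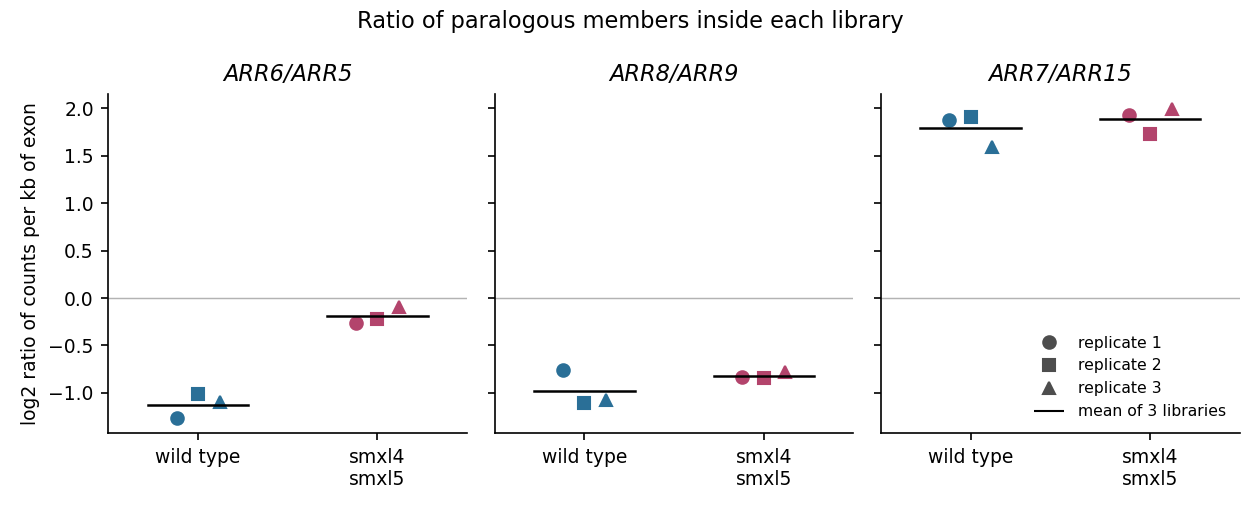
Log2 ratio of counts per kb of exon between paralogous members (vertical axis, shared by the panels) in each of 3 wild-type and 3 mutant-labelled libraries; points are libraries and lines are means of 3. For *ARR6/ARR5* the mutant-labelled libraries lie between -0.26 and -0.10, above all wild-type libraries, while for *ARR8/ARR9* and *ARR7/ARR15* the groups overlap.

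The stretches of 300 bases before the annotated starts of *ARR5* and *ARR6* are shown because *ARR6* was called and its closest relative was not, and those of *ARR8* and *ARR9* for the same reason. They are read 5′ to 3′ in the direction of the gene from the RefSeq TAIR10.1 genome, and capitals mark AGATT and AGATC, core letters bound by type-B regulators, on either strand.
ARR5, chr3:17760951-17761250, minus strand: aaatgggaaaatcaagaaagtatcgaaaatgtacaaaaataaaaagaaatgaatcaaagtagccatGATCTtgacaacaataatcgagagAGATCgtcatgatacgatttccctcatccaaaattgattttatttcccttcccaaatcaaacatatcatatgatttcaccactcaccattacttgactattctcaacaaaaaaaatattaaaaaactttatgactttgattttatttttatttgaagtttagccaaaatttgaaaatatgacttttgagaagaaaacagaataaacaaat
ARR6, chr5:25254319-25254618, minus strand: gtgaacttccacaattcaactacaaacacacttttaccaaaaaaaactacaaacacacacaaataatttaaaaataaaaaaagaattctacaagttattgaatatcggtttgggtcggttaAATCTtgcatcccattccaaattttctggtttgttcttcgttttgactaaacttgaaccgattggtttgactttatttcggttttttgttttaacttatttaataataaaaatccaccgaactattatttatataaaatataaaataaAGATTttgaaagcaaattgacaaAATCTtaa
ARR8, chr2:17221540-17221839, plus strand: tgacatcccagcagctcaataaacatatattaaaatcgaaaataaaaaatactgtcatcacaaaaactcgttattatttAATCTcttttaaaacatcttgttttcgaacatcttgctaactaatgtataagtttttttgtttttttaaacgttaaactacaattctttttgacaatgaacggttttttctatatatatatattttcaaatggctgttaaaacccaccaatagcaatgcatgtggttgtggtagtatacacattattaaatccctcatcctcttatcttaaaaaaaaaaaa
ARR9, chr3:21108759-21109058, plus strand: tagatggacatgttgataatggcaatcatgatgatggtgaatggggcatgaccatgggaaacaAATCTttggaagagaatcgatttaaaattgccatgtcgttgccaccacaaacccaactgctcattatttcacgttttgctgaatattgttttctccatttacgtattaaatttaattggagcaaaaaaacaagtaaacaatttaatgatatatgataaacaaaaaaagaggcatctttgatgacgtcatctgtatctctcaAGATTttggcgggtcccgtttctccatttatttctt
The window of *ARR6* holds 3 matches of AGATT and 0 of AGATC, and that of *ARR5* holds 0 of AGATT and 2 of AGATC. *ARR8* has 1 match of AGATT and *ARR9* has 2, and neither has AGATC. In each of the 10 members at least 1 of these words occurs in the window. Such short words are common, however, since AGATT occurs in 70.7%, AGATC in 31.7% and either of them in 79.9% of the 27443 windows of the same length before protein-coding genes. At least 3 matches occur in 25.7% of all windows, and are found for *ARR6*, *ARR7*, *ARR15* and *ARR16*, of which *ARR6* was called. AGATCT, which reads the same on both strands, counts as 2 matches of AGATC, as in *ARR7*. A match is a description of letters and not of binding.

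*ARR8* and *ARR9* form another pair, with coding sequences identical at 81.3% of aligned bases. *ARR8* (AT2G41310; chromosome 2, 17221840 to 17224880, plus strand) stood at 55.4, 52.2 and 47.7 CPM in the mutant-labelled libraries and at 40.9, 40.5 and 45.0 CPM in wild type. The groups did not overlap, but mutant-labelled replicate 3 was only just above wild type replicate 3. The means were 51.8 ± 3.89 and 42.1 ± 2.51 CPM (SD, n = 3) and the log2 fold change was 0.30 ± 0.08 (95% interval 0.11 to 0.49; edgeR adjusted p = 0.0364). *ARR9* (AT3G57040; chromosome 3, 21109059 to 21111567, plus strand) stood at 78.8, 75.1 and 65.6 CPM against 55.4, 69.7 and 75.7 CPM. Its groups overlapped, and its log2 fold change of 0.13 ± 0.13 (95% interval -0.17 to 0.42; edgeR adjusted p = 0.484) had the same sign as that of *ARR8*. Inside libraries the log2 ratio of *ARR8* to *ARR9* was -0.83, -0.85 and -0.78 in the mutant-labelled group and -0.76, -1.11 and -1.07 in wild type. These ranges overlapped (difference 0.16, exact two-sided permutation p = 0.40), so a different response of *ARR8* and *ARR9* was not shown. Both loci overlap an annotated locus on the opposite strand, AT2G09250 by 299 bases and AT3G08825 by 231 bases, and neither of these is a row of the count table used here. AT2G07440, a locus 92.7% identical to *ARR8* over 397 bases, held 14 counts over all libraries.

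The calls of *ARR6* and *ARR8* did not hold in every fit with 1 library left out. Leaving out mutant-labelled library 1 or 2, or wild-type library 1 or 2, ended both calls. In these 4 fits 0 of 7 members were called, and the share of all genes called was 12.2%, 17.9%, 11.8% and 9.28% in turn. Both calls held without mutant-labelled library 3 or wild-type library 3, where 27.2% and 23.6% of all genes were called. With the replicate number as a block 0 members were called, against 16.5% of all genes. The log2 fold change of *ARR6* stayed between 0.68 and 1.02 and that of *ARR8* between 0.24 and 0.35, with edgeR adjusted p of up to 0.0836 and 0.141. In the authors' deposited table, whose fold changes are shrunken and were turned here to mutant over wild type, the adjusted p was 0.000144 for *ARR6* and 0.0287 for *ARR8*. The same table gives 0.519 for *ARR4*, 0.764 for *ARR5*, 0.745 for *ARR7*, 0.594 for *ARR9* and 0.906 for *ARR15*.

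*ARR7* and *ARR15*, which restrain cytokinin signalling in the shoot meristem and are repressed there by WUSCHEL, did not pass the test in these stems. *ARR7* (AT1G19050) stood at 64.4, 61.7 and 59.8 CPM against 52.9, 66.1 and 57.9 CPM. *ARR15* (AT1G74890) stood at 19.3, 21.3 and 17.2 CPM against 16.5, 20.2 and 21.9 CPM. For both genes the groups overlapped. The log2 fold change was 0.07 ± 0.09 for *ARR7* (95% interval -0.14 to 0.29; edgeR adjusted p = 0.597) and -0.02 ± 0.13 for *ARR15* (95% interval -0.32 to 0.27; edgeR adjusted p = 0.904). The log2 ratio of *ARR7* to *ARR15* was 1.93, 1.73 and 2.00 in the mutant-labelled libraries and 1.88, 1.91 and 1.60 in wild type, a difference of 0.09 (exact two-sided permutation p = 0.50).

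*ARR4*, whose protein also binds the red light photoreceptor phytochrome B, was the most abundant member. *ARR4* (AT1G10470) stood at 207, 243 and 181 CPM in the mutant-labelled libraries and at 175, 183 and 213 CPM in wild type. The groups overlapped, with a log2 fold change of 0.14 ± 0.13 (95% interval -0.15 to 0.44; edgeR adjusted p = 0.433). Its relative *ARR3* (AT1G59940), which acts with *ARR4* on the period of the circadian clock, was all but absent, with 1, 0 and 0 counts in the mutant-labelled libraries and 2, 0 and 2 in wild type. A count of 0 allows up to 3 counts, which is 0.0605 to 0.139 CPM depending on the library. *ARR16* (AT2G40670), known from the stomatal lineage of leaves, had 6, 5 and 5 counts against 4, 4 and 4. *ARR17* (AT3G56380), its closest relative, had 1, 3 and 1 counts against 2, 2 and 3. In CPM the libraries of *ARR16* did not overlap, at 0.180, 0.232 and 0.139 against 0.119, 0.0887 and 0.0807. Tested with no filter in edgeR, *ARR16* had a log2 fold change of 0.88 ± 0.53 (adjusted p = 0.291), and the adjusted p was 0.563 for *ARR3* and 0.987 for *ARR17*. None of the 3 passed the test at this depth.

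Levels of different members can be set side by side only per length. Per kb of annotated exon, the order in wild type was *ARR4* (90.8 ± 9.67 CPM per kb, SD, n = 3), *ARR7* (62.5 ± 7.10), *ARR5* (43.3 ± 9.27), *ARR9* (35.3 ± 5.52), *ARR6* (19.9 ± 4.39), *ARR15* (18.1 ± 2.59) and *ARR8* (17.8 ± 1.06). The libraries of *ARR5* overlapped with those of *ARR9*, those of *ARR6* with those of *ARR15*, and those of *ARR15* with those of *ARR8*. *ARR17*, *ARR16* and *ARR3* followed, each under 0.1 CPM per kb. In the mutant-labelled libraries *ARR6* reached 35.5 ± 6.31 CPM per kb and overlapped with *ARR9* above it, at 38.6 ± 3.59, and no longer with *ARR8* below it, at 21.9 ± 1.64. The annotated exons of several members are long relative to their coding part. Per kb of coding sequence *ARR4* was still highest, at 221 ± 23.6 CPM per kb in wild type, but 3 of 10 members kept their rank, and *ARR5* came before *ARR7*. *ARR8* then stood above *ARR6* in wild type, at 62.1 ± 3.71 and 51.7 ± 11.4. In the mutant-labelled libraries *ARR6* was at 92.2 ± 16.4 and *ARR8* at 76.4 ± 5.73. The separation of *ARR6* from *ARR8* given above is thus per kb of exon.

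Expressed as a share of the summed per-kb level of the 10 members, *ARR6* made up 10.7%, 11.9% and 10.4% in the mutant-labelled libraries and 6.60%, 6.20% and 7.76% in wild type. The shares of *ARR15* were lower without overlap, at 5.46%, 5.59% and 5.65% against 5.88%, 6.60% and 6.33%. *ARR16*, with 28 counts in all, separated in the other direction, at 0.0264%, 0.0317% and 0.0237% against 0.0221%, 0.0151% and 0.0121%. For *ARR4*, *ARR5*, *ARR7*, *ARR8*, *ARR9*, *ARR3* and *ARR17* the shares overlapped between groups, and *ARR4* held 31.2% ± 1.32 and 31.5% ± 0.645 (SD, n = 3). The shares are tied, since a rise of one member lowers those of the others. The summed level was 327, 354 and 281 CPM per kb in the mutant-labelled libraries and 260, 283 and 321 CPM per kb in wild type, which overlapped.

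**Figure D3:**
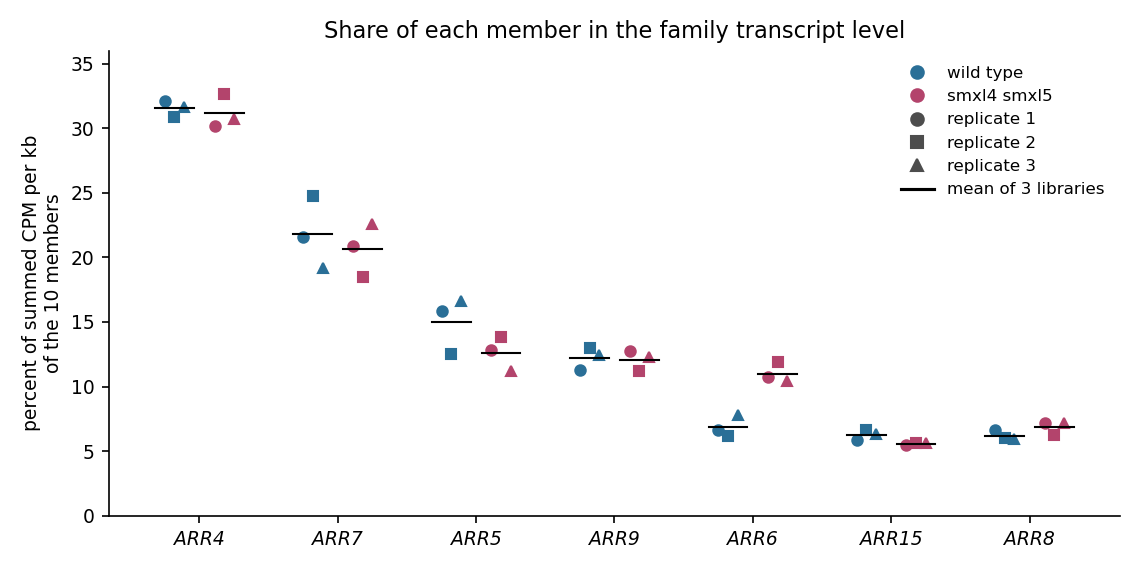
Percent of the summed CPM per kb of exon of the 10 type-A members (vertical axis, from 0) held by each of the 7 tested members in 3 wild-type and 3 mutant-labelled libraries; points are libraries and lines are means of 3. The share of *ARR6* lies between 6.20% and 7.76% in wild type and between 10.4% and 11.9% in the mutant-labelled libraries.

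The order of the libraries within each genotype was partly shared between members. All 7 tested members had their lowest value of the mutant-labelled group in replicate 3, the lowest library for 36.1% of all genes tested. In the wild-type group 6 of 7 were highest in replicate 3, the highest library for 38.1% of all genes tested, the exception being *ARR7*. *ARR4*, *ARR5*, *ARR6* and *ARR15* were highest in mutant-labelled replicate 2, and *ARR7*, *ARR8* and *ARR9* in replicate 1. *ARR5*, at 45.5 to 77.5 CPM over the 6 libraries, had the widest interval among the members.

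Upstream of the type-A genes stand the receptors, the phosphotransfer proteins and the type-B regulators, and their counts are read against the 24.9% of all genes called in either direction and the 13.7% called lower. None of the 3 cytokinin receptor genes and none of 6 tested type-B regulator genes was called in edgeR, where 0 also had an unadjusted p under 0.05, or in DESeq2. The receptor genes *AHK4* and *AHK3* had log2 fold changes of -0.14 ± 0.15 and 0.06 ± 0.08 (edgeR adjusted p = 0.504 and 0.587). The most abundant type-B genes, *ARR1* and *ARR10*, had 0.08 ± 0.06 and -0.14 ± 0.12 (edgeR adjusted p = 0.374 and 0.437). Of 11 type-B genes, 4 had 0 counts in all libraries, and both type-C genes also had 0. Of 5 tested phosphotransfer genes 1 fell and 0 rose, and 0 were higher at an unadjusted p under 0.05 or in DESeq2. *AHP4* went from 5.55 ± 1.00 to 2.89 ± 0.813 CPM (SD, n = 3; log2 -0.94 ± 0.23; adjusted p = 0.0253 in edgeR), a call that ended on leaving out any of the 4 libraries that ended those of *ARR6* and *ARR8*. *AHP2*, the most abundant of them, was at -0.04 ± 0.08 (edgeR adjusted p = 0.743). *AHP6*, singled out after its values were seen because it codes for an inhibitor of phosphotransfer, held 4 counts in all.

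Among the F-box genes whose products direct type-B regulators to degradation, 1 of 3 tested rose, against 11.2% of all genes tested called higher. *KMD2* went from 37.1 ± 1.91 to 50.8 ± 5.51 CPM (log2 0.45 ± 0.09; adjusted p = 0.0134 in edgeR), or an adjusted p of 0.0610 without wild type replicate 2. *KMD4* was at -0.74 ± 0.33 (edgeR adjusted p = 0.151) and was called lower in DESeq2 (adjusted p = 0.0222).

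Other genes downstream of the pathway were called in both directions among the response factors, and only lower among further cytokinin-raised genes. Of 6 cytokinin response factor genes, which encode AP2/ERF transcription factors, 2 rose and 1 fell. This count and that of the cytokinin-raised genes below are read against 11.2% of all genes called higher and 13.7% called lower. *CRF5* went from 9.95, 7.36 and 12.1 CPM in wild type to 20.1, 26.5 and 16.7 CPM in the mutant-labelled libraries, with no overlap (log2 1.10 ± 0.23; adjusted p = 0.0183 in edgeR). Like *ARR6*, it was highest of its group in mutant-labelled replicate 2 and wild type replicate 3. *CRF2* fell, from 2.78 ± 0.0883 to 1.44 ± 0.409 CPM (log2 -0.93 ± 0.21; adjusted p = 0.0200 in edgeR). The other riser was *CRF1*, singled out after its values were seen, at 0.378 ± 0.0594 and 0.705 ± 0.0742 CPM, and it was not called in DESeq2. Leaving out library 1 of either group ended the call of *CRF5*, as did the replicate block (adjusted p = 0.0644 in edgeR), and these libraries or wild-type library 2 ended that of *CRF2*. Of 6 further tested genes known to be raised by cytokinin, 2 fell and 0 rose, and at an unadjusted p under 0.05 there were also 0 higher, as in DESeq2. At an edgeR unadjusted p under 0.05, 3 were lower, as were 4051 of the 20296 genes tested. Each of the 6 had a log2 fold change below 0, and their median was -0.43, against 0.02 over all genes tested. *LBD3*, *CYCD3;2*, *SHY2* and *GATA21* were not called, at -0.22, -0.25, -0.43 and -0.43. Both called genes are D-type cyclin genes of cell cycle entry. *CYCD3;1* went from 75.6 ± 1.29 to 46.5 ± 3.17 CPM (log2 -0.70 ± 0.07; adjusted p = 0.00246 in edgeR) and *CYCD3;3* from 24.8 ± 0.299 to 18.2 ± 0.706 CPM (log2 -0.44 ± 0.07; adjusted p = 0.00570 in edgeR), and both calls held whichever library was left out.

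The genes that make, break down and carry cytokinin changed in both directions. Of 11 tested synthesis genes, 2 rose and 2 fell, against 11.2% of all genes tested called higher and 13.7% called lower. *CYP735A2*, which encodes the hydroxylase that forms trans-zeatin type cytokinin, went from 2.47, 2.62 and 4.99 CPM in wild type to 12.3, 11.7 and 14.7 CPM. Every mutant-labelled library was more than 2-fold above every wild-type library. The rise was 3.82-fold (log2 1.93 ± 0.28; adjusted p = 0.00631 in edgeR) and held whichever library was left out. *IPT3*, an isopentenyltransferase gene of the first step known from the phloem, went from 21.6, 20.3 and 33.5 to 60.8, 115 and 51.4 CPM. Mutant-labelled replicate 2 was far above the other libraries, and none overlapped (log2 1.58 ± 0.37; adjusted p = 0.0322 in edgeR). Leaving out library 1 of either group or wild-type library 2 ended the call. So did the replicate block (adjusted p = 0.0618 in edgeR) and testing with no filter (0.0686), and without mutant-labelled library 2 the log2 fold change was 1.14. *LOG8* and *IPT5*, singled out after their values were seen, fell by 0.70 and 0.49 on the log2 scale (edgeR adjusted p = 0.00193 and 0.0498), and *IPT5* was not called in DESeq2. With library totals alone or the replicate block, 1 synthesis gene was called lower. The same held on leaving out any library except wild-type library 3.

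Of 5 tested oxidase genes, whose enzymes degrade cytokinin, 1 rose and 0 fell, and 0 were lower at an unadjusted p under 0.05 or in DESeq2. *CKX1* went from 2.16 ± 0.588 to 4.34 ± 1.43 CPM (log2 1.02 ± 0.29; adjusted p = 0.0402 in edgeR), with overlapping groups and a call that ended on leaving out library 1 or 3 of either group or with the replicate block (adjusted p = 0.111 in edgeR). *CKX7*, the most abundant, was at 0.01 ± 0.12 (edgeR adjusted p = 0.949). Of 3 transport genes 1 rose and 1 fell. *ABCG14*, the exporter needed to move cytokinin from root to shoot, went from 29.1, 30.2 and 42.6 to 61.1, 67.8 and 47.3 CPM (log2 0.79 ± 0.19; adjusted p = 0.0272 in edgeR), and its call ended on leaving out the same 4 libraries as that of *ARR6* and with the replicate block (adjusted p = 0.0799 in edgeR). *PUP14*, a cytokinin importer of the plasma membrane, fell from 249.8 ± 66.1 to 151 ± 8.83 CPM (log2 -0.72 ± 0.19; adjusted p = 0.0331 in edgeR). Leaving out any mutant-labelled library, or wild-type library 1 or 3, ended its call. Over all 48 tested genes of these lists 7 rose and 7 fell, with a median log2 fold change of -0.05. Against 11.2% of all genes called higher and 13.7% called lower, these counts are near the background.

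**Figure D4:**
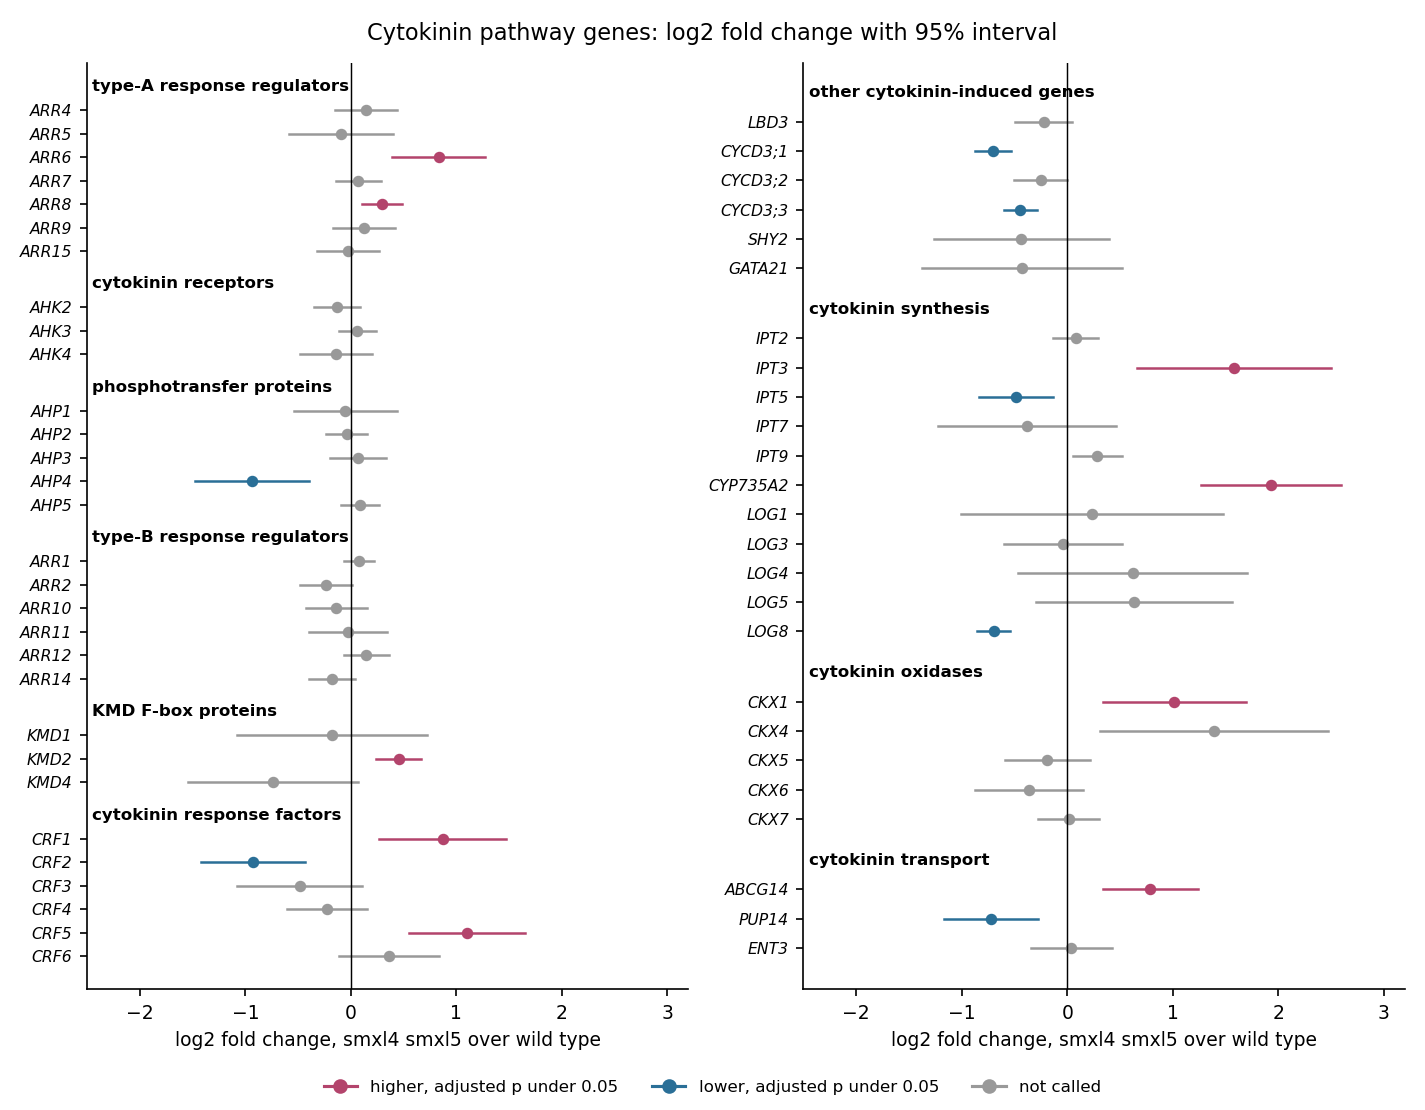
Log2 fold change, mutant-labelled over wild type (horizontal axis), with its 95% interval from edgeR's quasi-likelihood fit, for every tested gene of the type-A family and of the other cytokinin lists; colour marks an adjusted p under 0.05. Among type-A members *ARR6* and *ARR8* are called, no receptor or type-B regulator is called, and *CYP735A2* lies furthest to the right at 1.93.

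The gene whose pattern over the 6 libraries was most like that of *ARR6* was *ABCG14*. Likeness was the root mean square difference of log2(CPM + 0.5) deviations from the mean of each gene, and the 18521 other genes whose mean reached 1 CPM were compared. For *ABCG14* that difference was 0.043. The deviations of *ARR6* were 0.41, 0.67 and 0.16 in mutant-labelled replicates 1, 2 and 3 and -0.60, -0.57 and -0.07 in wild type, and those of *ABCG14* were 0.47, 0.62 and 0.10 and then -0.59, -0.54 and -0.05. Both genes shared the rise between groups and the order of libraries inside each group. For *ARR8* the most similar gene was AT4G14000, a locus without a symbol in the annotation used, with a difference of 0.022. It stood at 23.0, 22.5 and 20.5 CPM against 17.2, 17.0 and 19.5 CPM. With 6 libraries in 2 groups many genes come close to any pattern, and these are descriptions with no test.

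**Figure D5:**
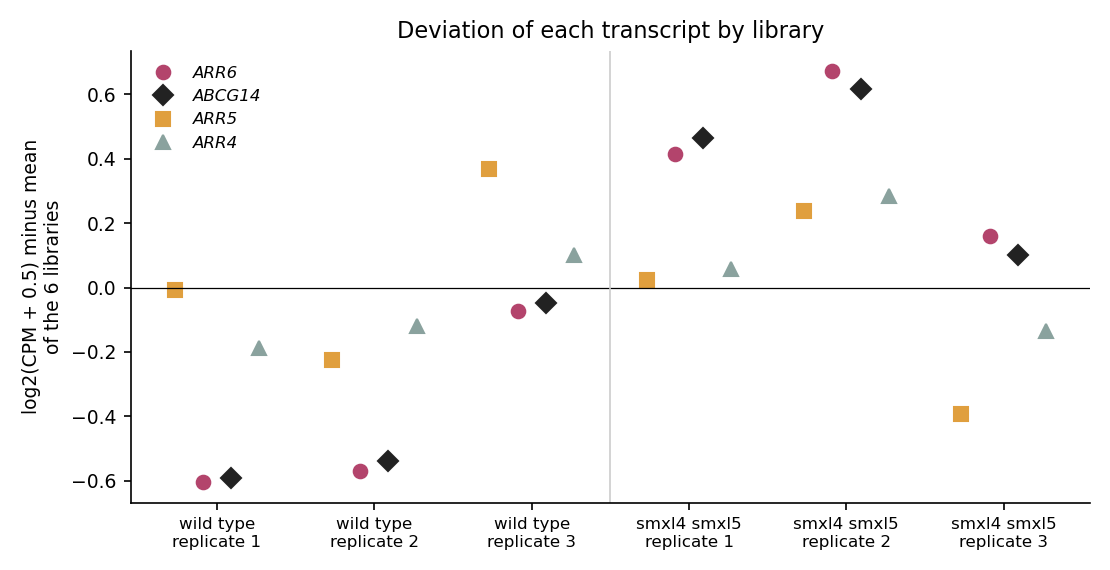
Log2(CPM + 0.5) of *ARR6*, *ABCG14*, *ARR5* and *ARR4* minus the mean of each gene over the 6 libraries (vertical axis), by library (horizontal axis); each point is 1 gene in 1 library. *ARR6* and *ABCG14* nearly coincide in every library, whereas *ARR5* is highest in wild type replicate 3 and lowest in mutant-labelled replicate 3.

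Many markers of stem tissues were called lower in the libraries in which *ARR6* and *ARR8* rose. All 7 phloem, 6 of 6 xylem, 6 of 6 photosynthetic cortex, 6 of 6 dividing cell, 3 of 6 cambium and 2 of 6 epidermis markers were called lower and 0 markers were called higher, also at an unadjusted p under 0.05 and in DESeq2. Of all genes tested, 13.7% were called lower and 11.2% higher. The cambium markers *LBD4*, *HB8* and *MOL1* and the epidermis markers *ATML1*, *PDF1*, *FDH* and *LTP1* were not called. Summed over each list, phloem markers were at 268 to 294 CPM in mutant-labelled and 562 to 619 CPM in wild-type libraries, and xylem markers at 2076 to 2572 and 3244 to 4017 CPM. Cambium markers were at 498 to 592 and 669 to 759 CPM, cortex markers at 8408 to 10672 and 14116 to 15339 CPM, dividing cell markers at 40.7 to 58.0 and 86.9 to 91.7 CPM, and epidermis markers at 121 to 218 and 286 to 426 CPM. Abundant genes weigh most in these sums, such as *PXY* at means of 353 and 455 CPM and *LHCB1.3* at 6128 and 8360 CPM. The called epidermis markers were *CER1*, at means of 24.7 and 92.0 CPM, and *MAH1*, at 28.6 and 130 CPM. *PDF1*, at 0.419, 1.67 and 16.4 CPM against 7.33, 8.98 and 11.7 CPM, overlapped between groups, as did *ATML1*, *FDH* and *LTP1*. No marker listed was at 0 in all libraries. Their part in the levels of the type-A genes was not tested.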

How the data were processed

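RNA from 6 samples, 3 per genotype, was sequenced, and replicate numbers were read from the titles. All wild-type descriptions say replicate 1, while the protocol speaks of biological replicates. The members and lists were chosen with earlier results of these data known. The authors deposited raw counts of reads per gene. The submitters' processing notes name FastQC 0.11.7, TopHat2 2.0.14, DESeq2 and TAIR10, with no role for each. The counting program and its strand setting were not given in the sources used here, although the kit was directional per the labels' protocols. Per the file headers, the deposited comparison table gives for each gene the authors' mean signal, their log2 fold change and its error, a score, and a p-value before and after adjustment. Signs of its log2 values, set against the deposited counts, give wild type over mutant, and were turned here. Score and signal were not used.

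Counts were tested with edgeR 4.0.16 in R 4.3.3: filterByExpr (minimum count 10, total 15), TMM factors, robust quasi-likelihood fits of genotype, and p-values adjusted over all tested genes by Benjamini-Hochberg with a threshold of 0.05. Adjusted p-values come from it unless another tool is named. The standard error is the log2 fold change divided by the root of F. DESeq2 1.42.0, other scalings and filters, a replicate term and each library left out were alternatives. Paralog ratios use a pseudocount of 0.5 counts and an exact permutation of samples. Chi-square per gene between replicates was 12.2 to 36.4, so no library is a copy of another of its group. It cannot tell whether replicates share plants. Totals limit the precision, and the floor of 3 counts covers counting error only. Positions, exon lengths and upstream sequence come from RefSeq TAIR10.1. BLAST 2.17.0 searched members against annotated transcripts, and Biopython 1.88 aligned coding sequences. Named are the 10 members, *SMXL4*, *SMXL5*, from each other list the 2 called genes with the largest changes, filled up with the most abundant, and the gene most similar to each called member. Of the 30 of these that the lists hold, which leaves out AT4G14000, 10 overlap another annotated locus, 9 of them on the opposite strand. Reads there may have been assigned to either locus or to neither. The F-box gene *KMD3*, whose 1445 bases all overlap AT2G44140 on the opposite strand, had 0 counts in all libraries, and the reason was not tested. The edgeR test was tested on simulated data.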

Additional observations from a re-analysis of the deposited data

How the results depend on the processing

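With the replicate number as a block, 0 type-A members (*ARR6* adjusted p = 0.0659, *ARR8* 0.0850 in edgeR), 2 other cytokinin genes and 1355 of all genes were called higher. Whether the numbers pair the samples was not settled. Same-numbered libraries correlated at 0.04, 0.07 and -0.03 in their deviations from group means, and not every library correlated best with its own number. Such weak correlations cannot show that same-numbered samples were handled apart. Leaving out 1 library gave 0 to 2 type-A members higher, 2 to 6 other cytokinin genes higher and 3 to 6 lower, and 597 to 2423 genes higher and 1305 to 3135 lower in all. The difference in the log2 ratio of *ARR3* to *ARR4* was -0.65 and became 0.14 with a pseudocount of 5 counts, *ARR3* having 5 counts in all. That of *ARR7* to *ARR15* ran from -0.0072, without wild-type library 3, to 0.17, and that of *ARR16* to *ARR17* was 0.86 (exact permutation p = 0.30). Among genes not called, the log2 fold change with 1 library left out changed sign and ran from -0.25 to 0.082 for *ARR5*, from -0.0032 to 0.16 for *ARR7*, from -0.13 to 0.059 for *ARR15*, from -0.070 to 0.17 for *SMXL5*, from -0.31 to 0.0075 for *AHK4*, from -0.10 to 0.0040 for *AHP2* and from -0.095 to 0.15 for *CKX7*, which without the filter was at -0.0023. The cause was not tested. No scaling moved the median of all genes by 0.1. By coding length, an alternative chosen after seeing the data, 3 of 10 members kept their rank in wild type. Counts of *ARR3*, *ARR16* and *ARR17* were few, and none passed with no filter. The replicate block also ended the calls of *CRF5*, *IPT3*, *CKX1* and *ABCG14*.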
